A study of Mus musculus with 6 samples.

Results

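Translation factors are the proteins that bring the ribosome, the messenger RNA and the transfer RNAs together and move the ribosome along the message. Genes of this kind were taken from an array study of mouse liver by their annotated symbols: every gene whose symbol begins with Eif1 to Eif6 or with Eef1 or Eef2 was a member, except the eIF2 kinase gene Eif2ak3 and the Y-linked Eif2s3y. This rule used symbols and no measured value, though it was set with earlier results of these data known. There were 50 of them among the 12393 genes measured. Gene expression was compared between livers of 3 PiZ mice and 3 wild-type mice, both 6 weeks old and on a C57BL/6 background, with 1 array per biological replicate. PiZ mice are transgenic for the Z form of human alpha-1 antitrypsin, a secreted protease inhibitor whose Z form folds poorly and is held back in the hepatocyte endoplasmic reticulum (ER). Wild-type mice carried no such transgene. Liver was sampled whole, so fewer cells of a type and less RNA per cell cannot be told apart.

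Initiation begins when eIF2, carrying the initiator transfer RNA and GTP, joins eIF1, eIF1A, eIF3 and eIF5 on the small ribosomal subunit. The eIF4 factors bind the cap of the messenger RNA and unwind its leader, eIF5B joins the large subunit, and the eEF factors then drive elongation. Under ER stress or amino acid shortage, kinases phosphorylate eIF2, which blocks its recharging by eIF2B and lowers overall protein synthesis. The 4E-binding proteins are a second brake, since they hold the cap-binding factor eIF4E away from eIF4G when the kinase complex mTORC1 is inactive.

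Values were log2 intensities of probe sets, the groups of short probes by which an Affymetrix array reads a gene. Each gene was represented by the brightest of its single-gene probe sets, by the mean of all 6 arrays. Differences are log2 values, PiZ minus wild-type, with standard errors (SE), from limma over all 12393 genes, and n = 3 per group throughout. A gene was called higher or lower at an adjusted p below 0.05 (Benjamini-Hochberg over all genes), and "changed", "rose" and "fell" are used of called genes. No filter on dim genes was applied, so all 50 members were tested. The number of arrays limits the precision.

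PiZ replicate 1 stood apart from PiZ replicates 2 and 3. Array medians lay between 6.12 and 6.18, and the arrays of the wild-type group correlated with each other at 0.996 to 0.997 over all genes. The correlation was 0.993 between PiZ replicates 2 and 3, while PiZ replicate 1 reached 0.980 to 0.984 with either. Control probe sets at the 3′ and 5′ ends of Gapdh and beta-actin show how complete the labelled RNA was, and their mean 3′ minus 5′ difference was 2.50, 4.64 and 4.33 in PiZ replicates 1, 2 and 3, against 2.20, 2.70 and 2.30 in wild-type. A larger difference means less signal at the 5′ end, and so less complete labelled RNA. This 3′ minus 5′ difference was thus near wild-type in PiZ replicate 1 and larger in the other PiZ arrays. Its part in the results was not tested. A fit with it as a covariate (called the covariate below) is given where it changes a call. Only PiZ replicates 2 and 3 had large values, so the PiZ estimate of this fit rests mainly on PiZ replicate 1. It was often close to PiZ replicate 1 minus the wild-type mean, as in Eif2d (0.22 and 0.22) and Eif2b1 (-0.26 and -0.28). The covariate is therefore not a correction for RNA completeness over 3 PiZ mice.

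Translation factor genes moved in both directions in PiZ liver, and by less than 2-fold in every called case. Of the 50 members 10 rose, 5 fell and 35 were not called. That is 20% higher and 10% lower, where 11.3% of all 12393 genes were called higher and 12.3% lower, or 23.6% in either direction. Their median difference was -0.02, beside 0.08 over all genes. The members were brighter than most genes, with a median PiZ level of 9.73 beside 6.75. When genes with a mean below 6 were left out, 31.9% of 47 members were called, against 34.8% of 7398 genes. The medians were then 0.02 for members and -0.05 for all genes, so both comparisons turned with the filter. All 3 PiZ arrays lay above all wild-type arrays for 15 members (30%, against 24.9% of all genes) and below them for 10 (20%, against 19.9% of all genes). Rises made up 66.7% of the members' calls, against 47.8% of the calls over all genes. When each array was centred on reference genes these shares were 76.9% and 56.6%. Without PiZ replicate 1 they were 53.1% and 55%. The members' share was 100% in each of the 4 fits without PiZ replicate 3 or a wild-type array. Those fits had 4 or 5 member calls, and the share over all genes was 47.5% to 48.8%. The centring put the median of all genes at 0.18. Of the 7 measured reference genes, 3 were themselves called higher (Ywhaz, Pgk1 and Polr2a) and 2 lower (Gusb and Tbp). Called rises ran from 0.39 (Eif3b) to 0.82 (Eif1a), and called falls from -0.41 (Eif4b) to -0.96 (Eif1b).

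The counts depended on single arrays, over all genes as well as over the members. Without PiZ replicate 1, 17 members were called higher and 15 lower (64%, against 49.8% of all genes). Of the 35 members not called with all arrays, 17 were then called. Without PiZ replicate 2 there were 6 and 3 (18%, against 14.4% of all genes). Without PiZ replicate 3 there were 5 and 0 (10%, against 11.6% of all genes). Each of the 3 fits that dropped a wild-type array had 4 higher and 0 lower (8%, against 8.62% to 10.2% of all genes). Those last 4 were Eif1a, Eif2b4, Eif3d and Eef1akmt1, whose calls held without any one array. Under the covariate, 7 members were higher and 1 lower (16%, against 14.6% of all genes).

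**Figure D1:**
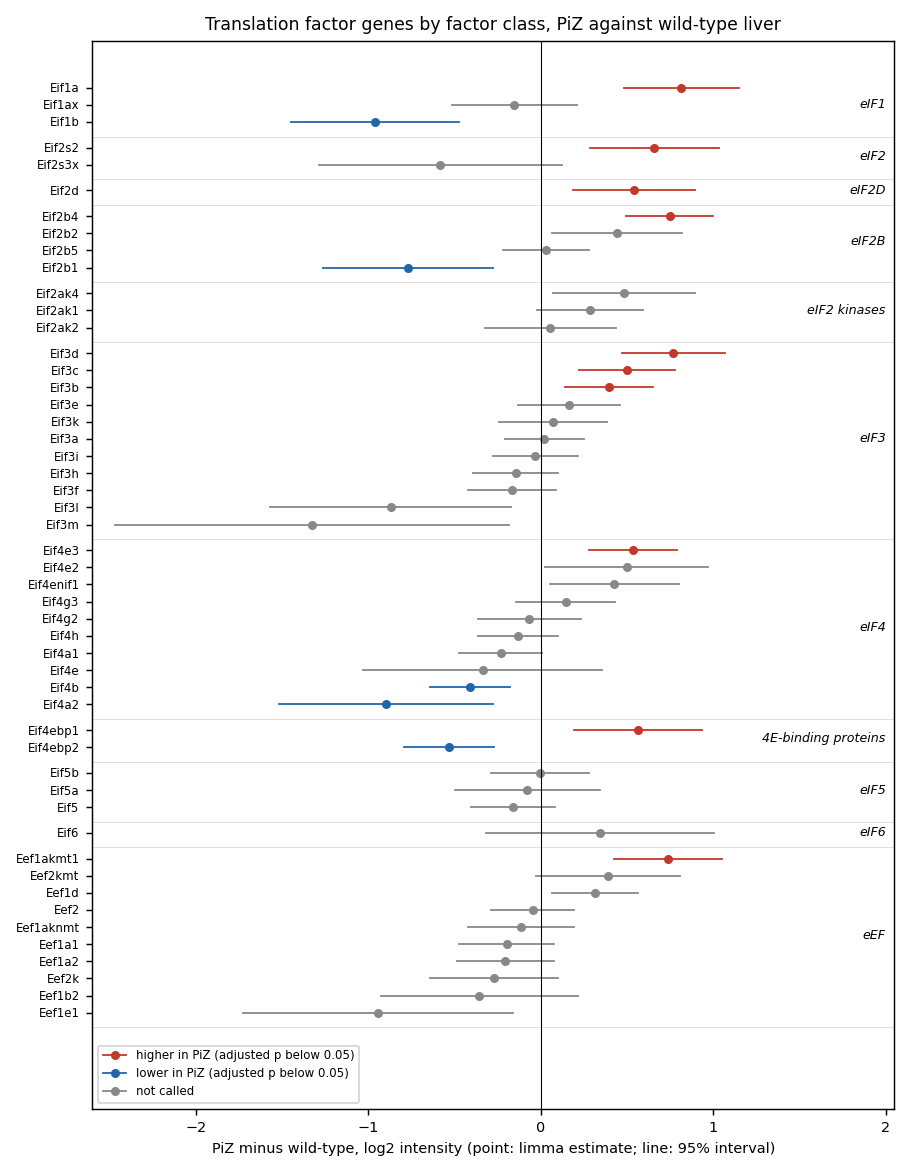
Difference between PiZ and wild-type (horizontal axis, log2 intensity) for each of the 50 factor genes, ordered by factor class. Points are limma estimates and lines their 95% intervals. The 10 genes called higher and the 5 called lower are spread over most classes, and the eIF5, eIF6 and eIF2 kinase classes hold no called gene.

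Among the genes of eIF2 itself, one subunit rose in its brightest probe set and another was not called. Eif2s2, the beta subunit, read 11.37, 11.78 and 11.97 in PiZ replicates 1, 2 and 3, against 11.03, 11.12 and 10.99 in wild-type. Every PiZ array was above every wild-type array, with PiZ replicate 1 the nearest. Eif2s2 rose by 0.66 (SE 0.16, limma adjusted p = 0.0252), which is 1.58-fold. The call was lost with the mean of all its probe sets, where the difference turned to -0.07. It was also lost with the covariate (0.32) and on leaving out any array other than PiZ replicate 1 (adjusted p = 0.0714 to 0.098). The X-linked gamma subunit Eif2s3x read 10.68, 9.43 and 9.61 in PiZ and 10.63, 10.40 and 10.45 in wild-type. PiZ replicates 2 and 3 were the low arrays and PiZ replicate 1 was the highest of all 6. Its difference of -0.58 (SE 0.30, adjusted p = 0.189) did not pass, but did without PiZ replicate 1 (-0.97, adjusted p = 0.000504). Eif2d, a factor that can place transfer RNA on the small subunit without eIF2, read 10.16, 10.61 and 10.67 in PiZ, against 9.91, 9.96 and 9.95 in wild-type. It rose by 0.54 (SE 0.15, adjusted p = 0.0388). The call was lost on leaving out any array other than PiZ replicate 1 (adjusted p = 0.106 to 0.128). It was also lost with the covariate (0.22) and with the mean of its probe sets (0.28, adjusted p = 0.116). The other probe sets of Eif2d read 0.49, 0.05 and 0.04 without a call.

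The subunits of eIF2B, the exchange factor that recharges eIF2 with GTP, did not move together. Eif2b4, the delta subunit, read 9.73, 9.64 and 9.87 in PiZ, against 9.02, 8.96 and 9.02 in wild-type. The 2 groups were far apart and all PiZ arrays alike. Eif2b4 rose by 0.75 (SE 0.11, limma adjusted p = 0.00429), or 1.68-fold, and was called under all 16 alternatives. Eif2b1, the alpha subunit, read 8.05, 7.38 and 7.24 in PiZ and 8.31, 8.20 and 8.46 in wild-type. It fell by 0.77 (SE 0.21, adjusted p = 0.0365), and most of that came from PiZ replicates 2 and 3. The call was lost with the covariate (-0.26) and on leaving out any array other than PiZ replicate 1 (adjusted p = 0.0833 to 0.128). Eif2b2, the beta subunit, differed by 0.44 (SE 0.16, adjusted p = 0.082) with no overlap between the groups. Eif2b5, the catalytic epsilon subunit, differed by 0.03 (95% interval -0.22 to 0.28). Of the 4 measured subunits, 1 rose and 1 fell.

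None of the 3 measured eIF2 kinases was called, by limma over all genes, and 1 of them had an unadjusted p below 0.05. Eif2ak4 (GCN2), which senses uncharged transfer RNA, read 6.32, 7.01 and 6.73 in PiZ and 6.29, 6.20 and 6.12 in wild-type. PiZ replicate 1 was close to wild-type, and the groups did not overlap. Its difference was 0.48 (SE 0.18, adjusted p = 0.0843), and it was called higher without PiZ replicate 1 (0.66, adjusted p = 0.00293) but read 0.09 under the covariate. Eif2ak1 (HRI), the heme-regulated kinase, read 7.73, 7.87 and 8.06 in PiZ and 7.45, 7.69 and 7.67 in wild-type. That is a difference of 0.29 (SE 0.13, adjusted p = 0.146), again without overlap, and it was called without PiZ replicate 1 (0.37, adjusted p = 0.036). Eif2ak2 (PKR), which binds double-stranded RNA, read 6.47, 6.93 and 6.93 in PiZ and 6.91, 6.61 and 6.64 in wild-type. These groups overlapped, and the difference was 0.06 (SE 0.16, adjusted p = 0.818).

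The eIF1 genes went in opposite directions. Eif1a encodes a form of eIF1A, which helps the small subunit scan for the start codon. It read 9.57, 9.67 and 9.42 in PiZ, against 8.99, 8.67 and 8.56 in wild-type, with the PiZ arrays close together. Eif1a rose by 0.82 (SE 0.14, limma adjusted p = 0.00854), or 1.76-fold, the largest rise among the members, and it was called under all 16 alternatives. The other, dimmer probe set of Eif1a differed by only 0.20 (adjusted p = 0.459 over all probe sets), with overlapping groups. Its X-linked paralog Eif1ax differed by -0.15 (SE 0.16, adjusted p = 0.482), and its other, dimmer probe set was called lower (-1.34, adjusted p = 0.0115 over all probe sets). Eif1b, a close relative of eIF1, read 8.41, 7.57 and 7.83 in PiZ and 9.02, 8.89 and 8.78 in wild-type. All PiZ arrays were below wild-type, replicates 2 and 3 by more. It fell by 0.96 (SE 0.21, adjusted p = 0.0172), to 0.513 of the wild-type level. The call was lost under the covariate (-0.46, adjusted p = 0.0797) and without PiZ replicate 3 or any 1 wild-type array (adjusted p = 0.055 to 0.0725).

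In eIF3, the scaffold of the scanning complex, 3 of 11 measured subunits rose and 0 fell, while the other 8 were not called. Eif3d, a subunit that can itself contact the cap of some messages, read 10.95, 10.57 and 10.88 in PiZ, against 10.08, 10.00 and 10.02 in wild-type. PiZ replicate 1 was the highest array here. Eif3d rose by 0.77 (SE 0.13, limma adjusted p = 0.00721), or 1.70-fold, under all 16 alternatives. Eif3c, a core subunit, read 12.15, 12.23 and 12.48 in PiZ and 11.79, 11.81 and 11.75 in wild-type. It rose by 0.50 (SE 0.12, adjusted p = 0.0232), and the groups were well separated. Eif3b, another core subunit, read 10.04, 9.90 and 9.84 in PiZ and 9.60, 9.55 and 9.45 in wild-type. It rose by 0.39 (SE 0.11, adjusted p = 0.0381). The calls of Eif3c and Eif3b were lost without PiZ replicate 3 or any 1 wild-type array, and that of Eif3b also without PiZ replicate 2, with adjusted p between 0.0655 and 0.146 in these fits. Eif3b also missed with limma's trended and robust variance model (adjusted p = 0.0532), and Eif3c under the covariate (0.38, adjusted p = 0.118).

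The remaining eIF3 subunits split into a group near 0 and a pair with large, uneven differences. Eif3a, the largest subunit, differed by 0.02 (95% interval -0.21 to 0.25), and Eif3e, Eif3f, Eif3h, Eif3i and Eif3k lay between -0.17 and 0.16. Eif3m read 8.55, 6.51 and 6.62 in PiZ and 8.68, 8.40 and 8.57 in wild-type. PiZ replicate 1 was within the wild-type range, while PiZ replicates 2 and 3 were below it. The difference of -1.32 (SE 0.49, adjusted p = 0.0856) was the largest of any member and did not pass. Eif3l read 9.65, 8.32 and 8.82 in PiZ, against 9.90, 9.66 and 9.85 in wild-type, a difference of -0.87 (SE 0.30, adjusted p = 0.0711). Both passed without PiZ replicate 1 (-1.98, adjusted p = 5.06e-05, and -1.23, adjusted p = 0.000736) and read 0.05 and -0.07 under the covariate. The median of the 11 subunits was 0.02, and it was 0.15, 0.14 and 0.12 after cyclic loess, a further quantile normalization and centring on reference genes.

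Of the 10 measured eIF4 genes, 1 rose, 2 fell and 7 were not called. Eif4a2, one of the eIF4A helicases, read 11.54, 10.56 and 10.48 in PiZ and 11.83, 11.69 and 11.75 in wild-type. It fell by 0.90 (SE 0.27, limma adjusted p = 0.0465), with PiZ replicate 1 much nearer to wild-type than the other PiZ arrays. The call was lost with the covariate (-0.20) and on leaving out any array other than PiZ replicate 1 (adjusted p = 0.109 to 0.148). Its paralog Eif4a1 differed by -0.23 (SE 0.10, adjusted p = 0.138), without overlap. Eif4b, which stimulates the helicase, read 10.50, 10.49 and 10.38 in PiZ, against 10.90, 10.86 and 10.85 in wild-type. It fell by 0.41 (SE 0.10, adjusted p = 0.0257), evenly over the PiZ arrays. The size was less, and the call was lost, under cyclic loess (-0.29), a further quantile normalization (-0.30) and reference gene centring (-0.31). It was also lost with the mean of its probe sets (-0.24), with the covariate (-0.37, adjusted p = 0.0771), and without PiZ replicate 3 or any 1 wild-type array (adjusted p = 0.0791 to 0.109).

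The cap-binding genes were not alike. Eif4e, the main cap-binding factor, read 8.84, 7.57 and 7.92 in PiZ and 8.60, 8.29 and 8.45 in wild-type in its brightest probe set. The groups overlapped, and the difference was -0.34 (SE 0.30, adjusted p = 0.422). It was called lower without PiZ replicate 1 (-0.70, adjusted p = 0.00544) and called higher under the covariate (0.47, adjusted p = 0.0499), so its direction turned with the setting. Its other 2 probe sets were called higher, by 0.52 (adjusted p = 0.0204) and 0.44 (adjusted p = 0.0441) over all probe sets. Eif4e3, a distant relative of Eif4e, read 7.23, 7.42 and 7.40 in PiZ, against 6.89, 6.81 and 6.76 in wild-type. It rose by 0.53 (SE 0.11, adjusted p = 0.0137), and the groups did not overlap. The call was lost under the covariate (0.42, adjusted p = 0.058) and without any 1 wild-type array (adjusted p = 0.052 to 0.0715). Eif4e2 (4EHP), which binds the cap without recruiting eIF4G, differed by 0.50 (SE 0.20, adjusted p = 0.11), and Eif4enif1 (4E-T), a partner that carries eIF4E into the nucleus and to P-bodies, by 0.43 (SE 0.16, adjusted p = 0.0904). The scaffold genes Eif4g2 and Eif4g3 differed by -0.07 (95% interval -0.36 to 0.23) and 0.15 (-0.14 to 0.43), and the helicase partner Eif4h by -0.13 (-0.36 to 0.10). Another, dimmer probe set of Eif4h was called lower (-0.45, adjusted p = 0.0293 over all probe sets), and a further one read -0.44 without a call.

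The 2 measured 4E-binding proteins moved in opposite directions. Eif4ebp1, a target of the stress factor ATF4 in other systems, read 11.04, 11.52 and 11.52 in PiZ, against 10.76, 10.70 and 10.94 in wild-type. All PiZ arrays were above wild-type, PiZ replicate 1 by only a little. Eif4ebp1 rose by 0.56 (SE 0.16, limma adjusted p = 0.0397), or 1.48-fold. The call was lost with the mean of its probe sets (0.36), with the covariate (0.26) and on leaving out any array other than PiZ replicate 1 (adjusted p = 0.0877 to 0.13). Eif4ebp2 read 9.70, 9.83 and 9.61 in PiZ, against 10.34, 10.20 and 10.20 in wild-type. It fell by 0.53 (SE 0.11, adjusted p = 0.0152), to 0.692 of the wild-type level, by a similar amount on each PiZ array and also with the covariate (-0.55, adjusted p = 0.0408). It was not called with the mean of its probe sets (-0.25, adjusted p = 0.0854), after reference gene centring (-0.43, adjusted p = 0.0571), or without PiZ replicate 3 or any 1 wild-type array (adjusted p = 0.0539 to 0.0781).

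**Figure D2:**
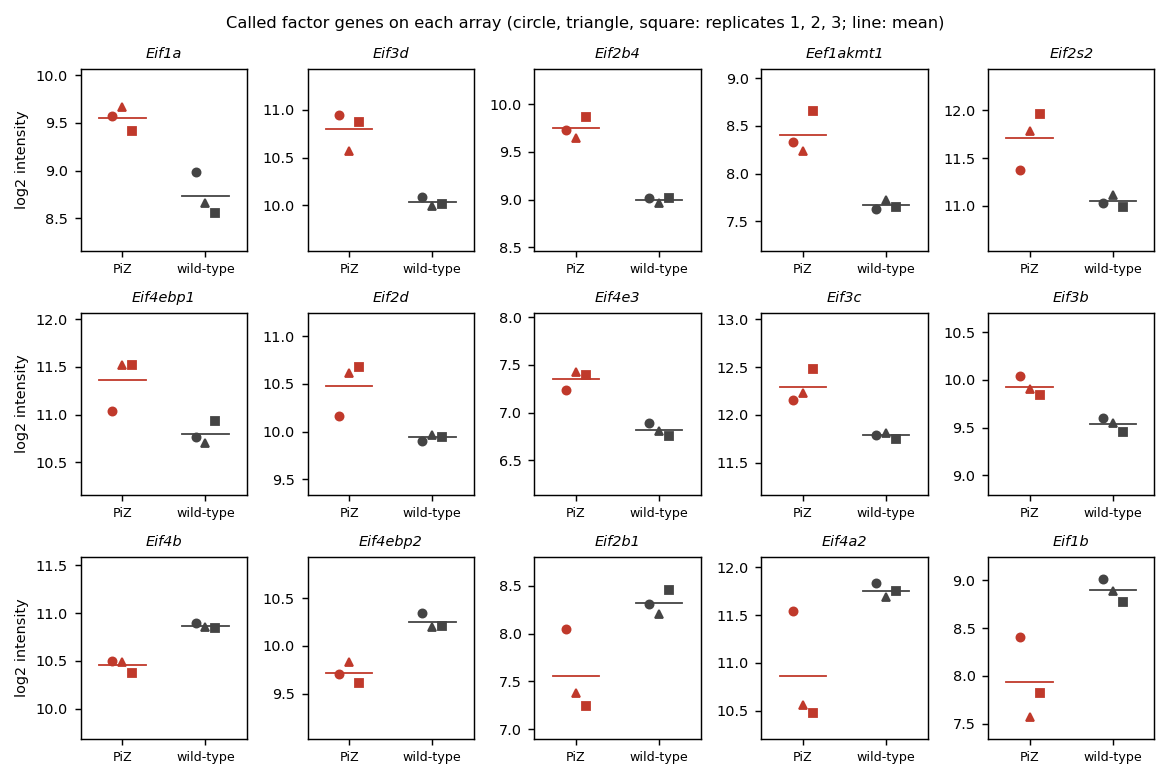
Log2 intensity (vertical axis, the same span in each panel) of the 15 called factor genes on each array, PiZ left and wild-type right. Circles, triangles and squares are replicates 1, 2 and 3, and lines are group means. Eif3d and Eif2b4 are raised on all 3 PiZ arrays, while in Eif4a2 and Eif2b1 the circle of PiZ replicate 1 lies close to wild-type.

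No eIF5 gene and not Eif6 was called with limma, and 0 of these 4 genes had an unadjusted p below 0.05. Eif5, which makes eIF2 hydrolyse its GTP at the start codon, read 11.60, 11.70 and 11.58 in PiZ and 11.85, 11.70 and 11.82 in wild-type, a difference of -0.16 (SE 0.11, adjusted p = 0.278). Eif5a, which helps the ribosome through difficult peptide bonds, read 12.83, 12.11 and 12.38 in PiZ and 12.56, 12.50 and 12.51 in wild-type. PiZ replicate 1 was above and PiZ replicates 2 and 3 were below the wild-type range, and the difference of -0.08 (SE 0.18, adjusted p = 0.769) read 0.05 once arrays were scaled by cyclic loess, and 0.04 with quantile normalization. Eif5b, the subunit-joining GTPase, differed by -0.0041 (95% interval -0.29 to 0.28). Eif6, which keeps the ribosomal subunits apart, read 9.18, 8.08 and 8.48 in PiZ and 8.28, 7.90 and 8.52 in wild-type. The groups overlapped, and PiZ replicate 1 was the highest array. Its difference of 0.34 (SE 0.28, adjusted p = 0.389) was 1.05 and called under the covariate (adjusted p = 0.0146).

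The core elongation factors were not called, and 1 of 10 eEF genes rose. Eef1a1, which delivers transfer RNA to the ribosome, read 13.86, 13.53 and 13.69 in PiZ and 13.90, 13.85 and 13.93 in wild-type. Its difference was -0.20 (SE 0.12, limma adjusted p = 0.248). Eef2, the translocase, read 12.76, 12.64 and 12.73 in PiZ and 12.67, 12.77 and 12.83 in wild-type. The groups overlapped, and the difference was -0.05 (95% interval -0.29 to 0.20). Eef1akmt1, a methyltransferase that modifies a lysine of eEF1A, was the gene that rose. It read 8.33, 8.23 and 8.65 in PiZ, against 7.63, 7.73 and 7.65 in wild-type, a rise of 0.74 (SE 0.13, adjusted p = 0.00958) or 1.67-fold. It was called in 15 of 16 alternatives, the exception being the mean of its probe sets (0.39, adjusted p = 0.0707).

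The accessory elongation genes went either way without a call in their brightest probe sets. The exchange factor subunits Eef1b2 and Eef1d differed by -0.36 (SE 0.25, adjusted p = 0.307) and 0.31 (SE 0.11, adjusted p = 0.0705). Another, dimmer probe set of Eef1d was called higher (0.74, adjusted p = 0.0249 over all probe sets), and a further one read 0.37 without a call. Eef1b2 read 12.74, 11.69 and 11.97 in PiZ, against 12.49, 12.45 and 12.52 in wild-type, so that PiZ replicate 1 was the highest array and PiZ replicates 2 and 3 the lowest. Eef1e1, a part of the multi-tRNA synthetase complex, differed by -0.94 (SE 0.34, adjusted p = 0.0778), with 7.91, 6.39 and 6.92 in PiZ and 8.04, 7.94 and 8.06 in wild-type. Eef2k, the kinase that inhibits eEF2, differed by -0.27 (SE 0.16, adjusted p = 0.24). The methyltransferase genes Eef2kmt and Eef1aknmt differed by 0.39 and -0.11, and Eef1a2, the form of muscle and neurons, by -0.20.

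The difference of PiZ replicate 1 from PiZ replicates 2 and 3 ran through many of these genes. For 12 members the mean of PiZ replicates 2 and 3 lay at least 0.6 from the wild-type mean and PiZ replicate 1 less than 0.3 from it, limits set after the values were seen and used without a test. That is 24% of the members, against 9.61% of all genes. The opposite, with PiZ replicate 1 alone far from wild-type, held for 1 member (Eif6, 2%, against 1.86% of all genes). Of the 12, 7 were lower in PiZ replicates 2 and 3 (Eif3m, Eef1e1, Eif4a2, Eif3l, Eif2b1, Eif2s3x and Eef1b2) and 5 were higher (Eif4e2, Eif4ebp1, Eif2d, Eif2ak4 and Eif2b2). The median SD of members was 0.20 in PiZ and 0.071 in wild-type, over 3 arrays each, beside 0.21 and 0.10 over all genes.

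**Figure D3:**
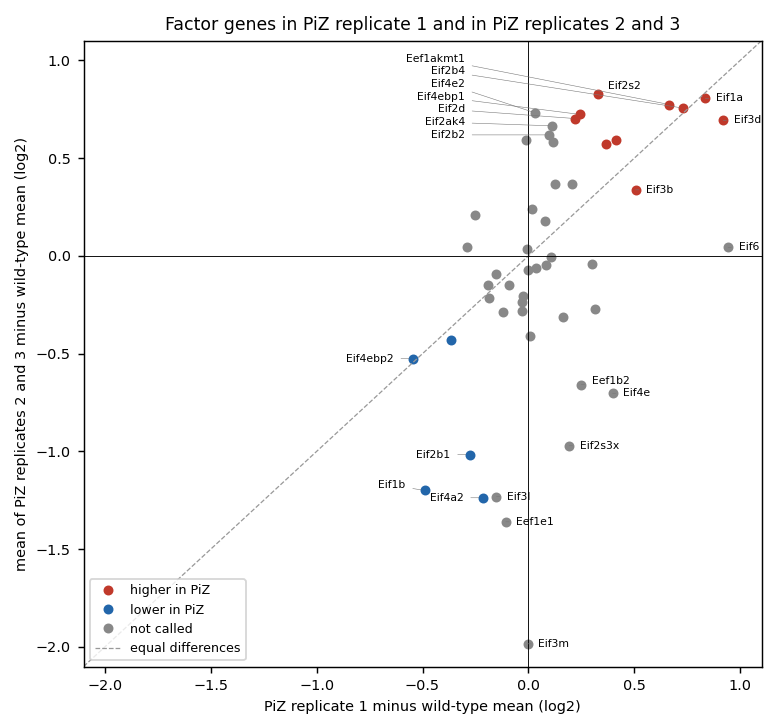
Each point is 1 of the 50 factor genes, with the difference of PiZ replicate 1 from the wild-type mean on the horizontal axis and that of the mean of PiZ replicates 2 and 3 on the vertical axis (both log2). Eif1a, Eif2b4, Eif4ebp2 and Eif4b lie near the dashed line of equal differences, while Eif3m sits at 0 for PiZ replicate 1 and at -1.98 for replicates 2 and 3.

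Where a gene had several probe sets they often disagreed. The 50 members had 114 single-gene probe sets, and 29 members had more than 1. For 12 of these 29 all probe sets had one sign, and for 0 were probe sets called in opposite directions. The 9 called members with several probe sets had 24 others, of which 17 shared the sign of the brightest and 6 were called in the same direction. Eif2s2 was the widest case. Of its 6 probe sets, the brightest and another were called higher (0.66 and 0.66), while 3 others read -0.23, -0.69 and -0.99 without a call. In the lowest of them PiZ replicates 2 and 3 read 9.46 and 9.28, PiZ replicate 1 read 10.72, and wild-type read 11.00, 10.58 and 10.85. The other probe set of Eif4e3 was called higher too (1.26, adjusted p = 0.0302), as were 2 of the 3 others of Eef1akmt1, and 1 of the 4 others of Eif4ebp2 was called lower (-0.59, adjusted p = 0.0176). The 6 remaining called genes (Eif1b, Eif2b1, Eif2b4, Eif3b, Eif3d and Eif4a2) had 1 probe set each. That of Eif4a2 was not called in the fit over all probe sets (-0.90, limma adjusted p = 0.0556). Names ending in _x_at or _s_at mark probes that may match related transcripts, and they read 10 of the members, among them the called Eif1a, Eif3c and Eif4ebp1.

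**Figure D4:**
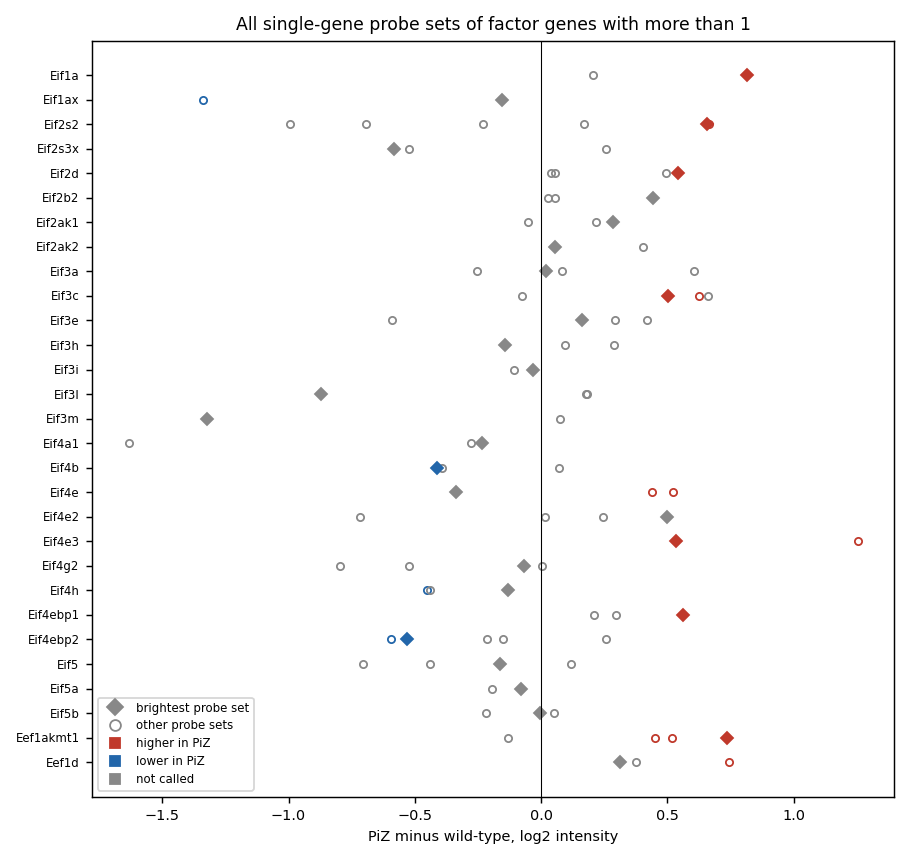
Difference between PiZ and wild-type (horizontal axis, log2 intensity) for every single-gene probe set of the 29 factor genes with more than 1. Filled diamonds are the brightest probe set of a gene and open circles the others, coloured by call over all probe sets. The probe sets of Eif2s2 run from -0.99 to 0.66, and those of Eif4e3 both lie above 0.

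Promoters of 40 members were matched by gene ID to RefSeq windows (GRCm38.p6), which reach from 250 bases before to 50 after the gene start. The core of the amino acid response element bound by ATF4 with C/EBP factors, TGATGNAA on either strand, was in 1 of the 40, that of Eif2s3x, and in 0 of the 6 matched genes called higher, beside 2.62% of 9882 measured genes with a window. The other genes called higher, Eif1a, Eif4e3, Eif4ebp1 and Eef1akmt1, had no window and were not searched. The E-box CACGTG, the same on both strands and bound by MYC and related factors, was in 9 of the 40, and 9.33% of all windows held it. CCAAT, on either strand, was in 12 of the 40 and in 38.1% of all windows. The motifs were chosen with the calls known, and a match describes letters only. Printed here are the 120 bases before the start of Eif2b4 and Eif3d, as the eIF2B and eIF3 genes called in every alternative, and of Eif1b and Eif2s3x, as genes with an E-box and with the amino acid response core. Sequences run 5′ to 3′ on the gene's strand, and capitals mark the matches.

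Eif2b4, chr5:31193140-31193259, minus strand, CCAAT in reverse: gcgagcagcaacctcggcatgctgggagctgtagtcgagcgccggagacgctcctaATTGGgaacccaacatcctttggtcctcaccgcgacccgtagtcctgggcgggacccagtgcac
Eif3d, chr15:77970825-77970944, minus strand, no match: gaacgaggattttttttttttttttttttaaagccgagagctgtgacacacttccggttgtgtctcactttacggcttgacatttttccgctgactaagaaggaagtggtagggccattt
Eif1b, chr9:120492486-120492605, plus strand, E-box: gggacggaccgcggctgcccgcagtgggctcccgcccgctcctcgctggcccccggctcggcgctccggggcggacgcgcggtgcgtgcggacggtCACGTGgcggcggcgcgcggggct
Eif2s3x, chrX:94212652-94212771, minus strand, amino acid response core in reverse: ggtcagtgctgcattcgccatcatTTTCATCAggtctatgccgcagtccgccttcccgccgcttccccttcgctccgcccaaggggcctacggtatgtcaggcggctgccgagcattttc

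Several genes of translation control outside the factors changed by more than 2-fold. Among 8 measured genes of the mTORC1 route, 2 rose and 0 fell (25% and 0%, against 11.3% and 12.3% of all genes). Both that rose are inhibitors of mTORC1. Other inhibitors on the list went the other way without a call, Tsc1 by -0.28 (limma adjusted p = 0.349) and Tsc2 by -0.69 (adjusted p = 0.0516). Sesn2, the leucine-sensing sestrin, read 7.81, 8.47 and 8.29 in PiZ, against 6.99, 6.79 and 7.19 in wild-type, a rise of 1.20 (SE 0.19, limma adjusted p = 0.0059). Ddit4 rose by 4.34 (SE 0.24). Among 7 measured eIF2 phosphatase genes and GCN2 partners, 2 rose and 2 fell (28.6% each way, against 11.3% and 12.3% of all genes). Impact, an inhibitor of GCN2, read 9.66, 9.30 and 9.23 in PiZ, against 7.69, 7.89 and 7.87 in wild-type, a rise of 1.58 (SE 0.14, adjusted p = 0.000852). Ppp1r15a (GADD34), the stress-induced subunit that directs the phosphatase to eIF2, rose by 1.28 (SE 0.25), its constitutive relative Ppp1r15b fell by 0.51 (SE 0.12), and the catalytic subunit Ppp1cc fell by 0.61 (SE 0.11).

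Of 12 measured initiation partners 1 rose and 4 fell (8.33% and 33.3%, against 11.3% and 12.3% of all genes). Mknk2, a kinase of eIF4E, rose by 1.08 (SE 0.22, limma adjusted p = 0.0143). Paip1, which links the poly(A)-binding protein to eIF4A, fell by 1.36 (SE 0.26), Pdcd4, an inhibitor of eIF4A, by 1.27 (SE 0.22), and Paip2, an inhibitor of the poly(A)-binding protein, by 0.75 (SE 0.14). Pdcd4 read 10.67, 10.01 and 9.91 in PiZ and 11.68, 11.48 and 11.25 in wild-type. Both stimulating and inhibiting partners were thus among those that fell. Pelo, which rescues stalled ribosomes, was the 1 of 6 termination and recycling genes that rose (0.44, SE 0.13, adjusted p = 0.0482). These genes were thus 16.7% higher and 0% lower by call. Of 9 genes related to elongation, Dhps, the first enzyme of the hypusine modification of eIF5A, rose by 0.56 (SE 0.16, adjusted p = 0.0432), and the mitochondrial initiation factor Mtif2 fell by 0.58 (SE 0.11, adjusted p = 0.0118). On the elongation list 11.1% were called in each direction, near the shares of all genes. The medians of these 5 lists ran from -0.61 (phosphatase and GCN2 partners) to 0.18 (termination and recycling), beside 0.08 over all genes. The calls on these lists were not checked by leaving out single arrays.

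Markers of hepatocytes and of other liver cells were read on the same arrays. The 6 hepatocyte markers, Alb, Apoa1, Ttr and Cyp2e1 among them, averaged 13.69 to 13.89 in PiZ and 13.68 to 13.73 in wild-type, and 1 of them (Tat) rose, by 1.12. The other 5 had negative differences without a call, from -0.25 (Apoa1) to -0.01 (Ttr). For Alb, Apoa1 and Cyp2e1 all PiZ arrays lay below all wild-type arrays (50% of the 6, against 19.9% of all genes). All 6 macrophage markers were measured, with an average of 8.32 to 8.84 in PiZ and 8.32 to 8.35 in wild-type, and 2 rose (Cd14 by 1.02, Clec4f by 0.64). Of 4 neutrophil markers 3 were measured. They averaged 6.43 to 6.81 in PiZ and 4.61 to 5.24 in wild-type, and S100a8 and S100a9 rose by 2.76 and 2.27, while Mpo differed by 0.05. No measured marker of endothelial, stellate, biliary, lymphoid or proliferating cells was called. The part of these cells in the factor values was not tested.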

How the data were processed

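Total RNA from liver was hybridised to Affymetrix expression arrays, with 1 array for each of 6 mice labelled as biological replicates. The authors deposited log2 values made with affy and RMA, per the submitters' processing notes, which name no versions. All 22690 probe sets were named from the platform annotation: 20380 named 1 gene, 691 several, 1555 none, and 64 were controls. Only single-gene probe sets were used, so 6 probe sets that name a factor beside another gene were left out. The brightest one per gene by the mean of all 6 arrays gave 12393 genes. Differences were tested with limma 3.58.1 (R 4.3.3; lmFit, eBayes with default settings) between the 3 PiZ and 3 wild-type arrays, without covariate, block or filter, with Benjamini-Hochberg adjustment over all genes. For a second look, the same fit was run over all probe sets except controls, whether they named 1 gene, several or none. The values of the members' single-gene probe sets were read from it.

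Every member is described or counted, and in each pathway list the called genes with the largest differences are named, up to 4 a list. The members, gene lists, motifs and tests were chosen with earlier results of these data known. On simulated arrays, 50 of 12393 genes were changed at each size. The test called 18% of genes changed by 0.5 on the log2 scale, 74% of those changed by 1 and 92% of those changed by 2. Of 147 calls 5 were false. Both groups were given 1 spread per gene, and far fewer genes were changed than were called in the data (2921). These shares therefore do not carry over to the data. The alternatives were the mean of probe sets, a dim-gene filter at a mean of 6, 3 scalings, a trended robust variance, array weights, a replicate block, PiZ replicate 1 alone, the 3′ to 5′ covariate, and leaving out each array. Python 3.11.15, pandas 2.3.3 and matplotlib 3.10.9 were used for sequences and figures. The pairing check by replicate number found correlations of 0.26, 0.29 and -0.03 between same-numbered arrays, so the numbers were not taken to pair the mice.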

Additional observations from a re-analysis of the deposited data

How the results depend on the processing

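Which arrays entered decided the counts more than the scaling did. Leaving out 1 array at a time gave 4 to 17 factor genes higher and 0 to 15 lower in PiZ, and 518 to 3397 of all genes higher and 550 to 2778 lower. The high ends came without PiZ replicate 1. Array weights gave 17 factor genes higher and 13 lower, with 3641 and 2879 over all genes. PiZ replicate 1 alone gave 6 and 2 factor genes, in a fit that assumes this lone array to vary like the wild-type ones. The 3′ to 5′ covariate left 1 factor gene lower, and 867 and 947 of all genes. With the replicate number as a block there were 10 and 8, Eif3b was not called (adjusted p = 0.0507), and the numbers do not pair the mice. Centring on reference genes left 3 lower and moved the median of the 50 members to 0.084. The calls of Eif1a, Eif2b4 and Eif3d held in all 16 alternatives, that lone-array fit among them. The causes were not tested.

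Class medians moved as follows. That of eIF1 was -0.75 with the mean of probe sets, 0.16 with PiZ replicate 1 alone and 0.18 with the covariate. That of eIF2B was 0.10 in each of these and 0.35 after cyclic loess, and the kinases' was 0.092 with the covariate. The eIF3 median was 0.15 after cyclic loess, 0.14 after quantile normalization and 0.12 after centring. The eIF4 median was 0.026, -0.025 and 0.0035 under these scalings, -0.12 with the mean of probe sets, -0.064 with array weights, -0.030 with PiZ replicate 1 alone and -0.042 with the covariate, and -0.13 to -0.052 with 1 array left out. The eIF5 median was 0.0825 with PiZ replicate 1 alone, 0.12 with the covariate and -0.15 to 0.081 with 1 array left out. The eEF median was -0.0068 with PiZ replicate 1 alone and -0.0047 with the covariate.

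The difference took both signs over the alternatives for 19 of the 50 members, of which 18 were not called. Eif2s2 was the called one. The sign turned, for example, for Eif2s2 (-0.070, mean of probe sets), for Eif2ak2 (-0.25 with PiZ replicate 1 alone, -0.22 with the covariate, -0.021 to 0.21 with 1 array left out) and for Eif5a. The last was 0.046 after cyclic loess, 0.038 after quantile normalization, 0.024 after centring, 0.31 with PiZ replicate 1 alone, 0.34 with the covariate and -0.27 to 0.087 with 1 array left out. With 3 arrays per group, differences near 0.5 were called for some members (0.50 in Eif3c, 0.53 in Eif4e3). They were not called for others (0.50 in Eif4e2, 0.48 in Eif2ak4). The simulated arrays held far fewer changed genes than were called here, and 1 spread for both groups. Their shares therefore do not settle how often such differences would be called.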
